A study of Mus musculus with 59 samples.

Results

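The Usp17l genes of the mouse encode a small family of ubiquitin-specific proteases with near-identical copies. Its members were taken by symbol from the deposited expression table: Usp17la, Usp17lb, Usp17lc, Usp17ld and Usp17le, which are 5 of the 24421 genes listed. The RNA came from embryos cloned by somatic cell nuclear transfer (SCNT): an oocyte receives a somatic nucleus in place of its own and is then activated. The labels give BDF1 as the strain of these embryos, name cumulus cells as the nuclear donors, and mention superovulated C57BL/6n females aged 5 to 7 weeks as a source of oocytes. They list 5 RNA libraries for each of 4 groups. Untreated embryos were collected as 1-cell embryos (13 to 14 h after activation), at the early 2-cell stage (20 to 21 h) and at the late 2-cell stage (33 to 34 h). The last group was collected at this same late stage after exposure to trichostatin A (TSA), which blocks zinc-dependent histone deacetylases, at a dose and for a time that the labels do not state. No group carries another allele or agent, and no fertilized embryos were among the RNA groups used.

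Each group has a single value for a gene in the table, so the values below carry no SD and the differences no test, replicate check or p-value. How the libraries of a group were combined is not given in the sources used here, and the depth is unknown. Values are FPKM (fragment numbers scaled for transcript length and library size), and differences are of log2(FPKM + 1), which understates differences of genes near or under 1 FPKM. The 1-cell group was matched to its column by the 13 h in the column's name. Of the oocyte markers fixed for a check of the labels, 13 of 13 were in the table. They summed to 3662, 2697 and 1505 FPKM at the 3 untreated stages and 1019 FPKM with TSA. Bmp15 and Oosp1 gave 1546 and 1311 FPKM of the 1-cell sum, and Figla was under 1 FPKM in every group. Not all markers followed the sum between the early and late 2-cell stages. Zp3 went from 27.9 to 101 FPKM and Zp1 from 18.6 to 40.3 FPKM. Of 12 markers with at least 1 FPKM in an untreated group, 2 differed by at least 1 upward and 4 downward. The shares of all genes were 47.1% and 10.8%. Since an estimate that failed may also appear as 0, a gene at 0 is described as listed at 0.

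Ubiquitin-specific proteases are cysteine proteases that cut ubiquitin off other proteins, and so can spare them from the proteasome or change their signalling. The founding mouse copies, named DUB-1 and DUB-2, were described as immediate-early genes that cytokines induce in blood cells. The same family belongs to the transcripts known from the 2-cell embryo and from 2-cell-like embryonic stem cells, together with the Zscan4, Tdpoz and Tcstv families. RefSeq gives Dub1 as a synonym of Usp17la, Dub1a of Usp17lb, Dub2 of Usp17lc, Dub2a of Usp17ld and Dub6 of Usp17le.

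All 5 genes lie on chromosome 7 of GRCm38.p6, the build of the RefSeq annotation used here, which matched 5 of 5 symbols. Usp17ld (103250086 to 103252505) and Usp17lc (103416696 to 103419174) form the left end of a span of 1613 kb. Usp17le (104767961 to 104777470), Usp17lb (104840257 to 104842583) and Usp17la (104857016 to 104862667) form its right end, 1349 kb away from Usp17lc. Within each end 2 copies point away from each other. The starts of Usp17lb on the minus strand and Usp17la on the plus strand are 14.4 kb apart, and those of Usp17ld on the minus strand and Usp17lc on the plus strand are 164 kb apart.

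Upstream sequence shows how alike the copies are, and where they differ. RefSeq promoter windows of GRCm38.p6, which run from 250 bases before to 50 bases after a gene's start, were matched for 4 of the 5 members, all but Usp17le. The stretches printed here are 138 bases long, aligned on the TATA-box-like element of 8 bases (in capitals), and read 5′ to 3′ on the strand of the gene. They lie at chr7:104856860-104856997 (Usp17la, plus strand), chr7:104842587-104842724 (Usp17lb, minus strand), chr7:103416498-103416635 (Usp17lc, plus strand) and chr7:103252588-103252725 (Usp17ld, minus strand).
Usp17la: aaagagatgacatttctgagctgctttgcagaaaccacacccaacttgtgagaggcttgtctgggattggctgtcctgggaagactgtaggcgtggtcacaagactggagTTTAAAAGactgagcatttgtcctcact
Usp17lb: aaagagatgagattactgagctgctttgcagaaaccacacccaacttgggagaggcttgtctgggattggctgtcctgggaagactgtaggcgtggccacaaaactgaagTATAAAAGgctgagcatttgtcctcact
Usp17lc: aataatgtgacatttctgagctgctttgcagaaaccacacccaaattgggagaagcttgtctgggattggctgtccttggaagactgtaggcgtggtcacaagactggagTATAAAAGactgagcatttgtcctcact
Usp17ld: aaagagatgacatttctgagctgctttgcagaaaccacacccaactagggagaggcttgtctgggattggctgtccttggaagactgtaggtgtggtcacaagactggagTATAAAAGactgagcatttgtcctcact

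These stretches aligned without gaps. Identity ran from 90.6% between Usp17lb and Usp17lc, with 13 substitutions, to 96.4% between Usp17la and Usp17ld, with 5. Usp17lb, Usp17lc and Usp17ld carry TATAAAAG, which 1.7% of 32851 RefSeq windows hold on either strand (each 300 bases long, against the 138 printed here). Usp17la differs from it by A2T, counted from 1 at the 5′ end of the element with the base of Usp17lb first. The element starts 31 bases before the annotated start of Usp17lb, 46 before that of Usp17la, 88 before that of Usp17lc and 110 before that of Usp17ld, so the annotated starts are not at the same place in the shared sequence.

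Both strands were searched for 3 further motifs, which do not overlap one another or the element where they were found. All 4 stretches hold CCAAT on the opposite strand 45 bases before the element, and Usp17lc holds another copy farther upstream. CCAAT is common, in 37.4% of windows. All 4 also hold CACACCC 75 bases before the element, against 7.95% of windows. The half-sites TGATT and AATCA 1 base apart, a form of the sequence bound by Dux, the homeobox activator of 2-cell genes, were in 0.0335% of windows and in 0 of these 4. That count says only that these letters are not in the windows searched, and the search was chosen with the expression values known.

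At the 1-cell and early 2-cell stages the family was low and consisted mostly of Usp17lc. Usp17lc had 2.18 FPKM at the 1-cell and 3.94 FPKM at the early 2-cell stage, and was the only member above 1 FPKM at either. It made up 76.8% and 82.5% of the family's summed FPKM. Usp17ld was at 0.333 and 0.213 FPKM, Usp17lb at 0.150 and 0.0896 FPKM, and Usp17le at 0.148 and 0.530 FPKM. Usp17la was at 0.0253 FPKM in 1-cell embryos and was listed at 0 in early 2-cell embryos. Reads cannot be assigned to near-identical copies with certainty, so the sum over the family is the firmer value. It was 2.83 FPKM at the 1-cell and 4.77 FPKM at the early 2-cell stage.

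In late 2-cell embryos the leading copy was Usp17lb. It was listed at 110 FPKM, which is 82.7% of the family's 132 FPKM, and ranked 984 among all 24421 genes, against 14251 at the early 2-cell stage. Usp17lc followed at 17.8 FPKM, which is 13.4% of the sum, and Usp17ld at 4.52 FPKM. Usp17la reached 0.551 FPKM, and Usp17le was lower than at the early stage, at 0.0545 FPKM. In these bulk values, fewer embryos or cells with the transcript and less transcript in each cannot be told apart.

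With TSA the order of the copies was the same as in untreated late 2-cell embryos and the levels were higher. Usp17lb was at 276 FPKM and ranked 313 among all genes, Usp17lc at 42.7 FPKM, Usp17ld at 5.88 FPKM, Usp17la at 1.44 FPKM and Usp17le at 0.139 FPKM. Their sum was 326 FPKM. Usp17lb made up 84.6% of it and Usp17lc 13.1%, close to their shares without TSA, while the share of Usp17ld was 1.80% with TSA and 3.41% without.

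**Figure D1:**
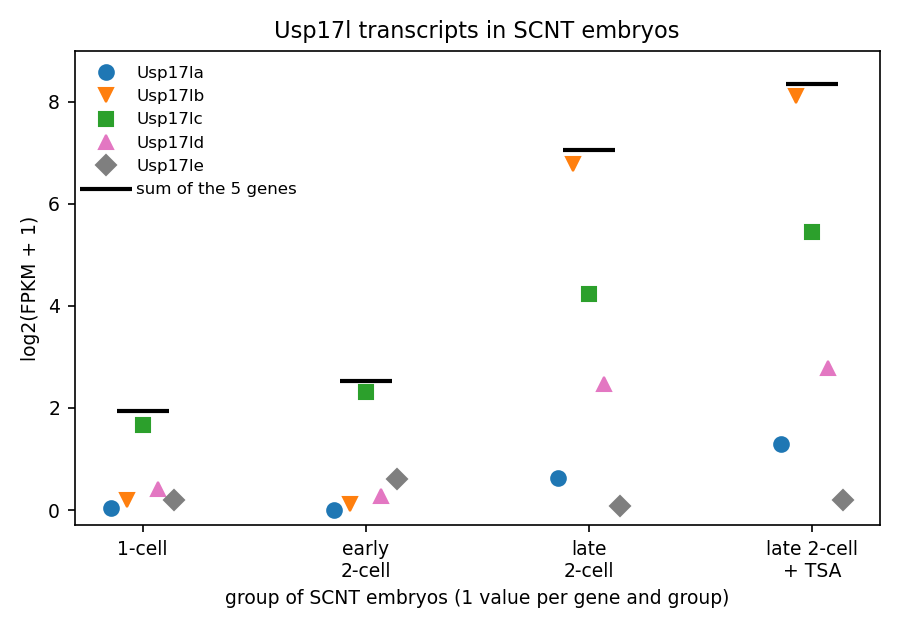
Each symbol is 1 gene's deposited log2(FPKM + 1) value (y axis) in 1 group of SCNT embryos (x axis), and the black bars are the log2(FPKM + 1) of the 5 genes' summed FPKM. The bar lies just above Usp17lc in 1-cell and early 2-cell embryos and just above Usp17lb in both late 2-cell groups, at 7.06 without and 8.35 with TSA.

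**Figure D2:**
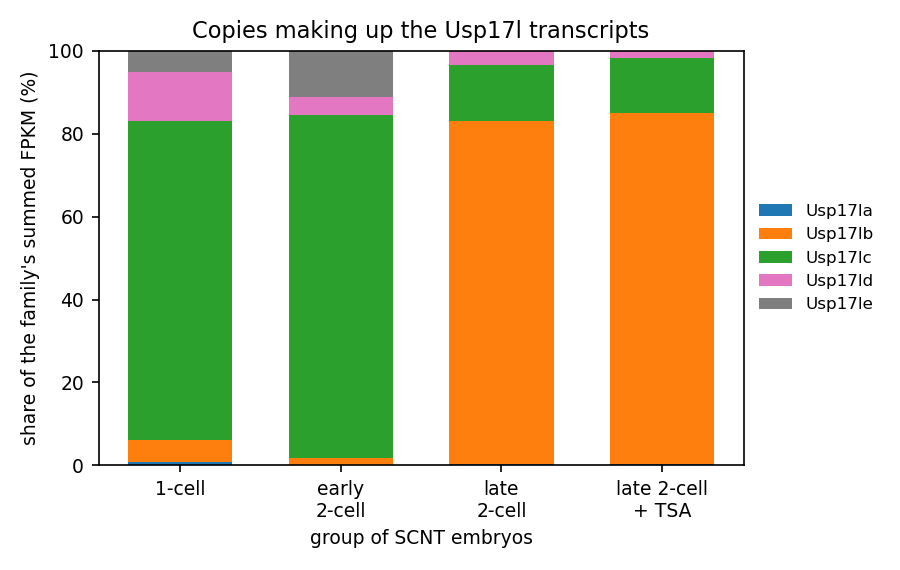
Stacked bars give each gene's share of the family's summed FPKM in percent (y axis) in each group (x axis). Usp17lc makes up 76.8% and 82.5% in the first 2 groups, and Usp17lb 82.7% and 84.6% in the 2 late 2-cell groups.

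The first comparison set early 2-cell against 1-cell embryos, to describe the family across the first cleavage. Usp17lc was higher by a difference of 0.64, which is 1.81-fold in plain FPKM and accounts for 90.9% of the change in the family's sum. The difference of the sum was 0.59. A gene was kept for counting with at least 1 FPKM in any of the 3 untreated groups, which 3 of the 5 members passed (Usp17lc, and through their late 2-cell levels alone Usp17lb and Usp17ld). Of these, 0 were at least 2-fold apart, a difference of at least 1, but at their 1-cell levels Usp17lb and Usp17ld could not be lower by that much on this scale. Of 13012 genes kept, 2.89% passed that size upward and 5.53% downward, with a median difference of -0.03. Usp17lb differed by -0.08 and Usp17ld by -0.14, or by -0.40 and -0.47 with a pseudocount of 0.1.

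The second comparison set late against early 2-cell embryos, the interval in which the mouse embryo's own genome is known to start its main wave of transcription. The family's sum went from 4.77 to 132 FPKM, 27.8-fold, and Usp17lb accounted for 85.7% of that change. The difference of Usp17lb was 6.66, the 5th highest of 13012 genes. That of Usp17ld was 2.19 and that of Usp17lc 1.93, which lie 19.2% and 23.9% of the way down the ranking of all genes. Of the 5 members 3 were kept, and these 3 were at least 2-fold higher, as were 47.1% of all genes, while 10.8% were at least 2-fold lower. Usp17lb and Usp17ld passed the filter through their late 2-cell levels alone, which fixed their direction here, so the count of 3 is a description only. The median of all genes was 0.89 in this comparison, and relative to it the difference of the family's sum was 3.64 rather than 4.53.

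Those shares of higher and lower genes depend on how columns are put on 1 scale. Higher genes made up 81.4% of the genes 2-fold apart as deposited, 65.9% after median-ratio scaling and 49.0% after quantile normalization, where the median of all genes was 0.38 and -0.15. The difference of the family's sum relative to that median was 3.58 and 3.72 under these scalings. Without Usp17lb, the difference of the sum between late and early 2-cell embryos was 2.07 instead of 4.53, so that copy sets much of the size of the difference. Below the threshold of the filter, Usp17la differed by 0.63 and Usp17le by -0.54.

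The third comparison set TSA-treated against untreated late 2-cell embryos, to ask how inhibiting histone deacetylases goes with the level of these transcripts. In plain FPKM the sum was 2.46-fold higher with TSA, Usp17lb 2.52-fold, Usp17lc 2.40-fold and Usp17ld 1.30-fold. Usp17la was 2.62-fold higher but from 0.551 FPKM. On the log2(FPKM + 1) scale the differences were 1.32 for Usp17lb, 1.22 for Usp17lc, 0.65 for Usp17la, 0.32 for Usp17ld and 0.11 for Usp17le, so all 5 lay above 0. With a filter of 1 FPKM in either group, 4 members were kept and 2 of them were at least 2-fold higher, against 2.51% of 12756 genes. In the other direction, 0 of the 4 and 4.08% of all genes passed that size. Usp17la is among the 4 through its level with TSA alone, which fixed its direction. This comparison and the previous one share the untreated late 2-cell group.

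Usp17lb ranked 140 and Usp17lc 188 among the 12756 differences with TSA, which places them 1.1% and 1.47% from the top. Usp17la, kept through its level with TSA alone, ranked 947 and Usp17ld 2699. The median of all genes was -0.08, and the difference of the family's sum was 1.29, or 1.37 relative to that median. Genes at least 2-fold higher made up 38.1% of those 2-fold apart as deposited, 58.2% after median-ratio scaling and 52.7% after quantile normalization. Usp17lb accounted for 85.9% of the added FPKM, and the sum of the other 4 copies still differed by 1.10.

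**Figure D3:**
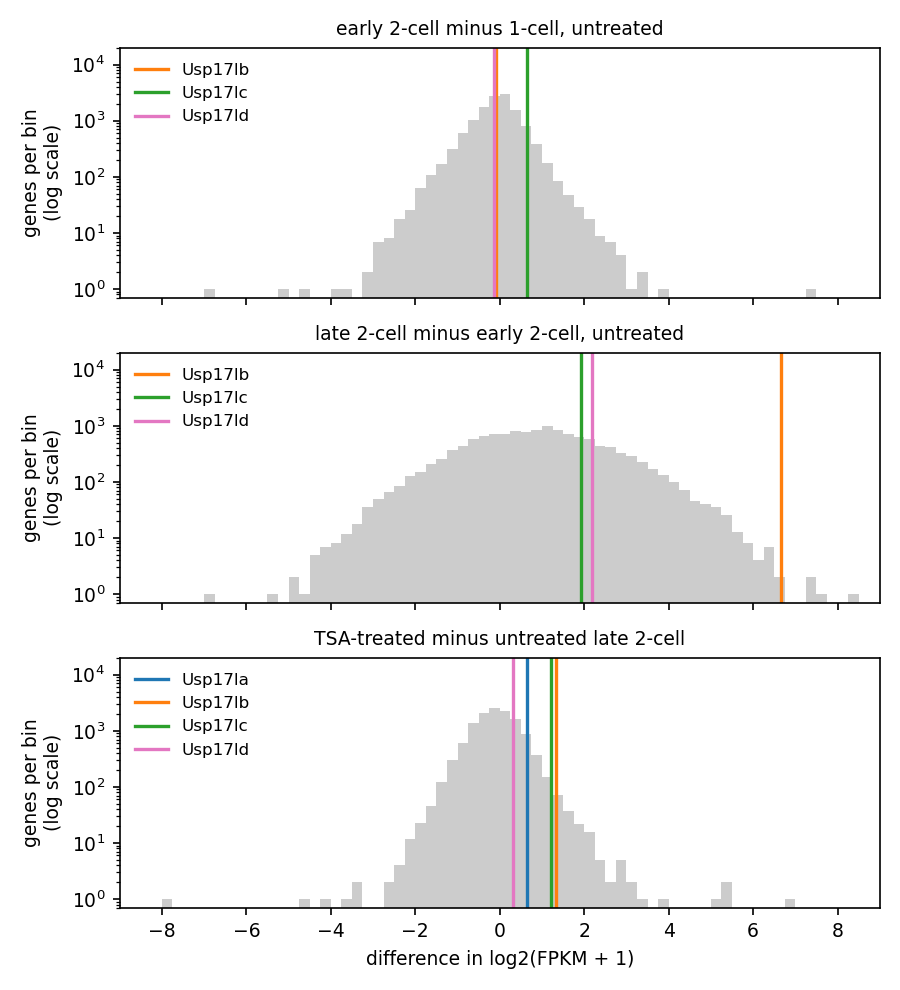
Grey bars count genes (y axis, log scale) by their difference in log2(FPKM + 1) (x axis, bins of 0.25) in each of the 3 comparisons, and coloured lines mark the members that passed the filter on low values. Usp17lb stands at 6.66 between early and late 2-cell embryos, at the far right of the genes, and Usp17lb and Usp17lc stand side by side at 1.32 and 1.22 with TSA.

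The members sit among genes that were hardly listed in these embryos. Between the outermost members RefSeq holds 113 other genes, of which 77 are in the table, 60 of them olfactory receptor genes and most others members of the beta-globin, ubiquilin and Trim clusters. Of these 77, 4 had at least 1 FPKM at the 1-cell, 3 at the early 2-cell and 6 at the late 2-cell stage, and 3 with TSA. The highest in the late groups was Trim6, a tripartite-motif gene, at 9.59 FPKM without and 18.9 FPKM with TSA. The 77 genes summed to 26.0 FPKM in untreated and 28.0 FPKM in TSA-treated late 2-cell embryos, against 132 and 326 FPKM for the 5 members. Trim30a, at 5.97 FPKM without and 2.96 FPKM with TSA, and the olfactory receptor gene Olfr649, at 4.06 and 3.06 FPKM, were lower with TSA.

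**Figure D4:**
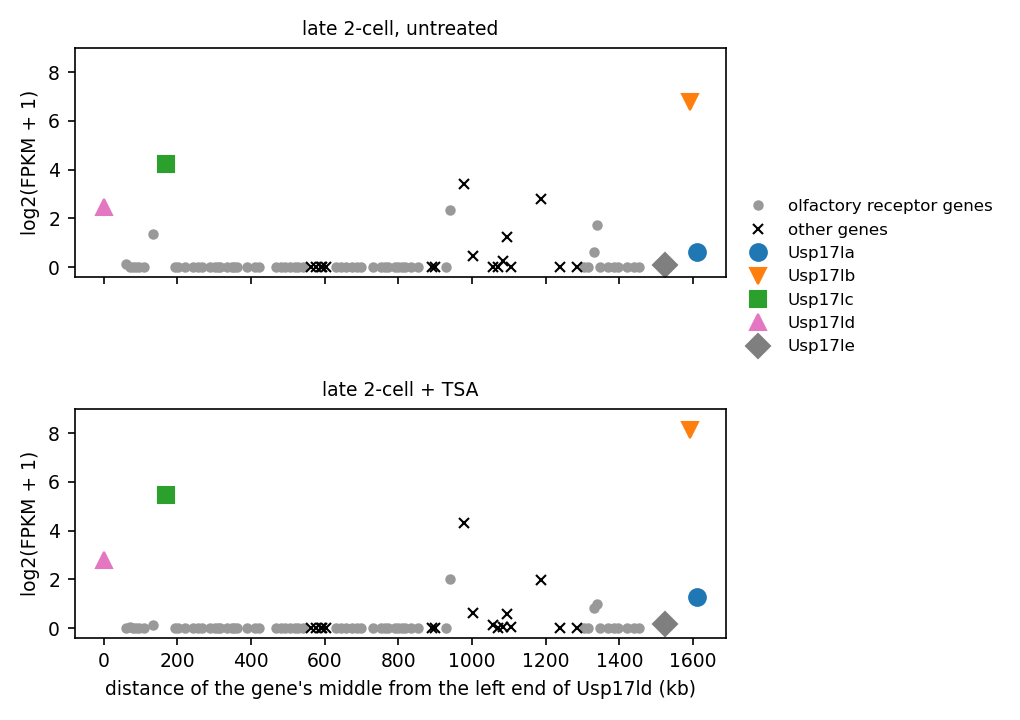
Each symbol is a gene of the span on chromosome 7, at its distance in kb from the left end of Usp17ld (x axis) and its log2(FPKM + 1) in late 2-cell embryos without (upper panel) and with TSA (lower panel). Most of the 77 neighbouring genes lie at or near 0, and Usp17lb and Usp17lc stand above them near opposite ends of the span.

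Among ubiquitin-specific proteases the family was a larger part of the transcripts at the late 2-cell stage than before it. It held 0.158%, 0.285% and 6.38% of the summed FPKM of 55 such genes at the 3 untreated stages in order, and 14.8% with TSA. Usp17lb ranked 52 of the 55 in 1-cell embryos, 53 at the early 2-cell stage, 4 at the late 2-cell stage and 2 with TSA. Usp17lc ranked 35, 30, 22 and 10 in the same order. The highest of the 50 others in each late group was Usp16, a histone H2A deubiquitinase, at 609 FPKM without and 589 FPKM with TSA. The summed FPKM of the 50 others was 1942 without and 1880 with TSA.

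Of the 50 other ubiquitin-specific proteases, 45 passed the filter in the comparison with TSA, with 1 gene at least 2-fold higher and 0 lower. The shares of all genes were 2.51% and 4.08%. The median difference of the 45 was -0.20, against -0.08 for all genes, and 16 of 45 lay above 0. The 1 higher gene was Usp22, the deubiquitinase of the SAGA coactivator complex, at 30.9 FPKM without and 92.2 FPKM with TSA, a difference of 1.55. Usp36, a nucleolar relative of the family, was at 9.82 and 16.5 FPKM. Between the early and late 2-cell stages, 17 of 47 were at least 2-fold higher and 5 lower, against 47.1% and 10.8% of all genes. The median difference of the 47 was 0.60, against 0.89 for all genes. The largest of these differences were Usp25 (3.49), Usp22 (2.96), Usp39 (2.92) and Usp5 (2.51), all smaller than that of Usp17lb. Usp25 and some others of the 17 passed the filter through their late 2-cell levels alone, which fixed their direction. Across the first cleavage 0 of 47 were higher and 2 lower, against 2.89% and 5.53% of all genes. The 2 were Usp10 (-1.38) and Usp14 (-1.28), a protease of the proteasome.

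Deubiquitinases of other classes differed less than Usp17lb between the 2-cell stages and with TSA. With TSA 0 of 31 kept were at least 2-fold higher and 1 lower, against 2.51% and 4.08% of all genes. The 1 lower gene was Josd1 of the Josephin class, at 22.0 FPKM with and 46.6 FPKM without TSA. Between the 2-cell stages 12 of 32 were higher and 7 lower, against 47.1% and 10.8% of all genes. Some of the 12 passed the filter through their late 2-cell levels alone, which fixed their direction. Psmd14, the deubiquitinase of the proteasome lid, had the largest difference at 4.29, from 7.62 to 167 FPKM, and Stambp, an endosomal deubiquitinase, the lowest at -3.11, from 75.8 to 7.87 FPKM. Across the first cleavage 0 of 32 were higher and 3 lower, against 2.89% and 5.53% of all genes. The 3 were Zufsp (-1.20), Psmd14 (-1.12) and Cops5 (-1.03). The most abundant gene of this group in late 2-cell embryos, Uchl1, was at 681 FPKM without and 471 FPKM with TSA.

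**Figure D5:**
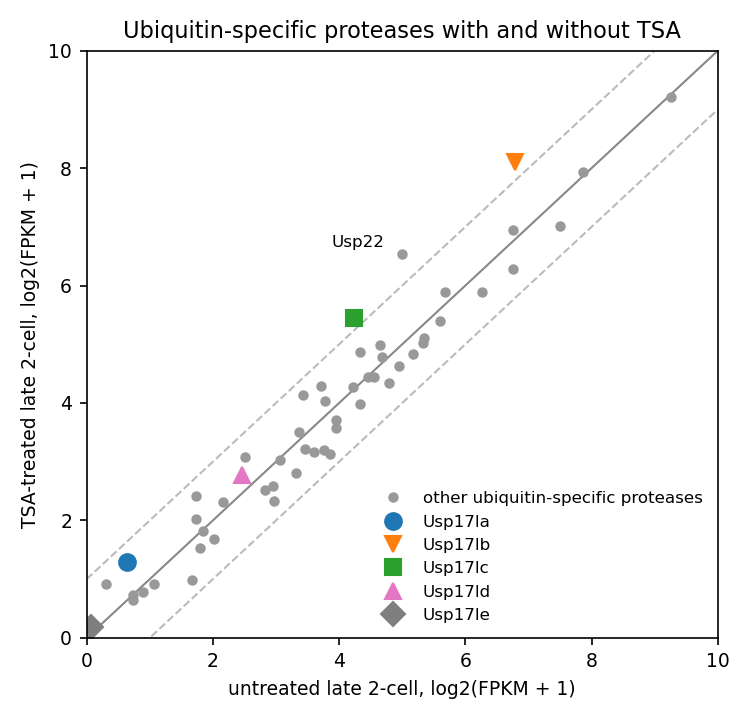
Each symbol is a ubiquitin-specific protease gene, placed by its log2(FPKM + 1) at the late 2-cell stage without TSA (x axis) and with it (y axis). Genes on the solid line have equal values, and the dashed lines lie 1 above and 1 below it. Usp17lb, Usp17lc and Usp22 lie above the upper dashed line and no gene lies below the lower one.

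Other families of near-identical 2-cell genes did not all share the pattern of Usp17l, and of those listed here the Tdpoz family was the most like it. The 5 Tdpoz genes, which encode proteins with a BTB domain, summed to 0.498, 0.570 and 63.3 FPKM at the 3 untreated stages and to 96.8 FPKM with TSA. That is 1.53-fold higher with TSA, against 2.46-fold for Usp17l. Between the 2-cell stages the difference of the Tdpoz sum was 5.36, against 4.53 for the sum of Usp17l. The 5 Zscan4 genes in the table, zinc finger genes of telomere maintenance, summed to 5.91, 2.88, 18.3 and 14.4 FPKM. Tcstv1 and Tcstv3 summed to 161, 236, 66.4 and 72.0 FPKM, highest at the early 2-cell stage, but differed from each other. Tcstv1 was at 203 FPKM in early and 36.8 FPKM in late 2-cell embryos, and at 27.2 FPKM with TSA. Tcstv3 was at 32.9, 29.6 and 44.8 FPKM in the same order. These differences between families could not be tested with 1 value per group.

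Single genes with the most similar profile were sought among 9171 genes with at least 5 FPKM in a group, by the Euclidean distance between mean-centred log2(FPKM + 1) values over the 4 groups. The closest to the family's sum was Lctl, a lactase-like gene of the glycosidase family, at a distance of 0.18. It was at 0.942, 2.22, 63.8 and 184 FPKM in the order of the groups, 2.87-fold higher with TSA. The next were Sapcd2 (0.38), the predicted gene Gm32511 (0.47), Slc34a2, a sodium-phosphate cotransporter (0.50), Rasl10a (0.51), Myl3, a myosin light chain (0.52), Cst7, a cystatin (0.52), and Pramel7, a gene of the Prame family (0.55). Myl3 was 2.50-fold and Sapcd2 1.70-fold higher with TSA. With 4 groups, this likeness is a description only.

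Transcripts of the proteins reported as substrates of human USP17 showed no common direction with TSA. The proteins themselves, on which a deubiquitinase acts, were not measured. Of 7 such genes 6 were kept and 3 lay above 0. None was 2-fold apart, against 2.51% of all genes higher and 4.08% lower. Hdac2, a histone deacetylase, was at 23.5 FPKM without and 17.3 FPKM with TSA, and Suds3, its partner in the Sin3 complex, at 26.7 and 19.4 FPKM. Cdc25a, a phosphatase that activates cyclin-dependent kinases, was at 10.8 and 9.70 FPKM. Rce1, which processes Ras proteins, was at 3.63 and 7.88 FPKM, H2afx at 13.9 and 24.3 FPKM, and Snai1 at 17.7 and 22.6 FPKM. Between the 2-cell stages Snai1 (3.18), Rce1 (1.24) and H2afx (1.18) were at least 2-fold higher. That is 3 of 6 higher and 0 of 6 lower, against 47.1% and 10.8% of all genes. Across the first cleavage 2 of 6 were at least 2-fold lower, Cdc25a (-1.43) and Rce1 (-1.15), and 0 higher. The shares of all genes were 5.53% and 2.89%.

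Receptors of the cytokines known to induce DUB-1 and DUB-2 in blood cells reached 1 FPKM in untreated late 2-cell embryos for 4 of 8 genes. The shared beta chains Csf2rb and Csf2rb2 and the IL-5 receptor Il5ra were listed at 0 in both late 2-cell groups. Il2rg, the common gamma chain, was at 31.6 FPKM without and 13.9 FPKM with TSA, Il2ra at 4.77 and 0.546 FPKM and Il2rb at 2.77 and 0.238 FPKM. Il3ra was at 1.17 and 0.266 FPKM and Csf2ra at 0.214 and 0.544 FPKM. Of 4 receptors kept, 3 were at least 2-fold lower with TSA and 0 higher, against 4.08% and 2.51% of all genes. Il2ra, Il2rb and Il3ra passed the filter through the untreated group alone, which fixed their direction, so this count is a description only. Between the 2-cell stages 2 of 4 were at least 2-fold higher, Il2rg (3.77) and Il3ra (1.12), and 0 lower, against 47.1% and 10.8% of all genes. Il3ra passed the filter through its late 2-cell level alone, which fixed its direction.

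Markers of other cells were measured beside the family. Of 11 blood markers, 10 were in the table, and they summed to 0.742, 5.26, 89.5 and 128 FPKM in the order of the groups. The alpha-globin genes Hba-a1 and Hba-a2 held most of this, at 32.9 and 33.0 FPKM without and 50.0 and 56.3 FPKM with TSA, and Lyz2 was at 3.46 and 14.4 FPKM. Cd52 was at 11.0 and 4.47 FPKM, Cd74 at 4.93 and 1.01 FPKM and Cd79a at 4.16 and 1.35 FPKM. So of 6 blood markers kept, TSA went with a level at least 2-fold higher for 1 and lower for 3. The shares of all genes were 2.51% and 4.08%. Between the 2-cell stages all 6 kept were at least 2-fold higher, against 47.1% of all genes. All of these but Hba-a2 passed the filter through their late 2-cell levels alone, which fixed their direction. The leukocyte marker Ptprc and the beta-globin genes Hbb-bs and Hbb-bt were listed at 0 in both late groups. The 15 cumulus markers summed to 26.6, 22.0, 86.5 and 34.9 FPKM, lower with TSA. Anxa2 gave 67.0 and 23.6 FPKM of the sums in the late groups without and with TSA, and Inha was listed at 0 in both. Of the 6 cumulus markers kept in this comparison, 2 were higher with TSA. These were Amhr2, at 3.01 FPKM without and 4.96 FPKM with TSA, and Cyp19a1, at 0.498 and 1.70 FPKM. Of 6 cumulus markers kept with TSA, 3 were at least 2-fold lower (Anxa2, Lgals1 and Fshr) and 0 higher, against 4.08% and 2.51% of all genes. Fshr passed this filter through the untreated group alone and Cyp19a1 through the TSA group alone, which fixed their directions. Between the 2-cell stages 4 of 7 were higher and 1 lower, against 47.1% and 10.8% of all genes. Of these, Fshr and Amhr2 passed the filter through their late 2-cell levels alone. The part of either cell type in the family's values was not tested.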

How the data were processed

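The labels describe 59 samples, of which 24 are RNA libraries and 35 chromatin libraries and inputs. The chromatin libraries and the 4 libraries of Dux-injected embryos were not analysed here. The authors deposited log2(FPKM + 1), per the file headers, in 6 columns of values. Each of the 4 columns used stands for a group of 5 libraries, and the other 2 match no RNA library in the labels. The submitters' processing notes name mm10, HISAT2 2.1.0, StringTie 1.3.4, SAMtools 1.7 and Cufflinks, without roles. How reads shared by near-identical copies were assigned is not given in the sources used here, and can move FPKM from copy to copy.

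FPKM was recovered as the power of 2 less 1 and summed over the family. A gene was counted at a difference of at least 1, with at least 1 FPKM in a group of the comparison (any untreated group for the stages). Scripts used Python 3.11.15, pandas 2.3.3, NumPy 2.4.6 and Biopython 1.88, and counting was tested on simulated data. Stretches were aligned globally with scores of 1 for a match, -1 for a mismatch, -2 to open and -0.5 to extend a gap. The rule for named genes took all members and the 8 nearest profiles, and allowed from each other list the most abundant gene and up to 4 at least 2-fold apart, or any gene of lists of 8 or fewer. Not every gene it allowed is named. Neighbouring genes, Usp36, the markers' values and the promoter motifs were chosen with values seen. The members and lists were chosen with earlier results of these data known.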

Additional observations from a re-analysis of the deposited data

How the results depend on the processing

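With 1 value per group there was no spread against which to judge a shift, so each alternative is given as its value. The family's sum kept its direction in all 3 comparisons under the 6 alternatives run. With TSA its difference was 1.30 with a pseudocount of 0.1, 1.27 with 5, 1.44 after median-ratio scaling, 1.46 after quantile normalization, 1.10 without Usp17lb and 0.72 as the mean of the 5 members' differences, which is under the 2-fold threshold. Across the first cleavage the same alternatives gave 0.73, 0.32, 0.73, 0.56, 0.63 and 0.16. Between the 2-cell stages they gave 4.77, 3.81, 3.96, 3.57, 2.07 and 2.17. The count of members at least 2-fold apart with TSA was 3 with a pseudocount of 0.1, adding Usp17la (kept through its level with TSA alone), and 2 under the others. Between the 2-cell stages it was 2 with a pseudocount of 5 or a filter of 5 FPKM, without Usp17ld, and 3 otherwise. Under quantile normalization those 3 were not the members reported: Usp17lc fell under the threshold at 0.88, and Usp17le passed it downward at -1.03. Across the first cleavage it was 0 throughout. No paired analysis was possible because each column is 1 value for its group of libraries, and for the same reason leaving out a replicate was not run. Depth is unknown, so values under 1 FPKM, among them those of Usp17la and Usp17le, carry the least weight.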
